A study of Mus musculus with 24 samples.

Results

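The H3K4me3 regions of wild-type (WT) mouse embryonic fibroblasts (MEF) were compared with those of WT wound-healing fibroblasts. All 16089 regions of the MEF list and all 16961 regions of the wound list were taken, 33050 of the 462996 peaks in the 17 peak lists analysed here. Regions that overlapped by at least 1 bp were paired. A protein-coding gene was said to have a promoter region where a region lay within 1 kb of any of its annotated transcript starts. Genes with a promoter region in 1 cell type only and genes whose region differed most in width are described, each also where the −log10 p of the region was at least 10.

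The series holds ChIP-seq of cultured mouse fibroblasts in which the homeodomain factor Prrx1 was present or deleted. MEF WT came from C57BL/6 embryos of day 10 to 13, and wound WT came from dorsal skin of C57BL/6 mice at day 10 after wounding, with the sgNS line (a control guide) standing for WT. Whether MEF WT also carried a control guide is not given in the sources used here. The other H3K4me3 lists were MEF SG and wound SG (Prrx1 deleted with a guide RNA and Cas9), MEF KI (embryos of the 129S-Prrx1tm1Jfm mutant line, labelled C57BL/6 and described as backcrossed to it) and MMTV-CAF WT (cancer-associated fibroblasts of FVB/NJ mice with MMTV-PyMT tumours). All cells carried the papillomavirus genes E6 and E7, so each list describes an immortalised culture and not the tissue itself. Each list comes from 1 library, so no difference below has a replicate check and no p-value was computed for it. Source tissue, culture, vector and library cannot be told apart.

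Trimethylation of lysine 4 of histone H3 (H3K4me3) marks the promoters of genes that are active or ready to be transcribed, and most CpG-rich promoters carry it in most cell types. Broad H3K4me3 domains tend to lie over genes that define a cell's identity, among them developmental transcription factors. Fibroblasts keep a positional record of where in the body they arose, held largely in the Hox, Tbx and related homeobox genes.

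The lists differed in their statistics. The median −log10 p was 28.6 in MEF WT and 16.6 in wound WT, while the median fold enrichment over input was 4.97 and 6.61. Median width was 1720 bp and 1545 bp, and the regions covered 30.5 Mb and 29.8 Mb. A −log10 p of 10 or more was reached by 75.1% of MEF WT and 66.1% of wound WT regions, so the same limit is not equally strict in both. The sequencing depth behind the lists is unknown, and since the −log10 p moves with depth, values of different lists stand side by side below as each list gives them, and a higher one does not show more of the mark. A region missing from a list was therefore not called there, which is not proof of absence.

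The fibroblast label was checked against 14 marker genes, of which 11 had a promoter region in both lists. Prrx1 itself had a region of 8628 bp in MEF WT and 4606 bp in wound WT. It kept one in MEF SG (7341 bp), wound SG (6092 bp) and MEF KI (4558 bp), so the mark does not check the deletion. Fap (6.91) and Dcn (16.3) had a region in MEF WT only, with the −log10 p in parentheses, and Lum had none in either. The defining leukocyte markers had no region in either list, among them Ptprc and Csf1r, and 12 of 13 genes of that marker list were without one. Of 20 keratinocyte and epithelial markers, 11 had no region in either list, including Krt5, Krt14 and Trp63. Of the 9 marked in either list, 5 had a region in wound WT only and none in MEF WT only, against 5.34% and 1.39% of all marked genes. All 5 were below a −log10 p of 10, namely Epcam (8.31), Dsp (6.10), Ovol1 (5.64), Krt18 (4.29) and Esrp1 (3.96). Of 12 endothelial markers, Erg (7.14) and Sox18 (4.62) had a region in wound WT only, and Pecam1, Cdh5 and Tek had none. Both lists had a region at 2 endothelial markers. Kdr (907 bp in MEF WT and 5528 bp in wound WT) was over 2-fold wider in wound WT. Flt1 (2136 bp and 1707 bp) was wider in MEF WT. Of 4 such epithelial markers, Krt19 (745 bp and 1763 bp, over 2-fold) and Cdh1 (333 bp and 663 bp) were wider in wound WT. Grhl1 (1515 bp and 1262 bp) and Esrp2 (3066 bp and 3015 bp) were wider in MEF WT. Neural marker Elavl4 (1376 bp and 394 bp) and adipocyte marker Lpl (3025 bp and 1481 bp) were over 2-fold wider in MEF WT. The part of other cell types in the differences below was not tested.

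Most regions had a partner in the other cell type. In MEF WT 1920 of 16089 regions were unpaired (11.9%, Wilson 95% interval 11.4 to 12.4), and in wound WT 2511 of 16961 (14.8%, 14.3 to 15.3). These and all later intervals cover the counting of regions or genes only. Unpaired regions were weak and narrow. Their median −log10 p was 4.77 in MEF WT and 4.36 in wound WT against 31.2 and 18.8 for paired regions, and their median width was 417 bp and 432 bp against 1896 bp and 1742 bp. In the quartile of regions with the lowest −log10 p, 44.9% of MEF WT and 51.2% of wound WT regions were unpaired. In the top quartile no region of 4022 was unpaired in MEF WT, with an upper limit of 0.0954%, and 1 of 4240 was in wound WT. At a −log10 p of at least 10, 112 MEF WT regions (0.927%) and 86 wound WT regions (0.768%) met no region of the other list.

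The unpaired regions differed in place. Of the unpaired MEF WT regions 14.4% lay at a promoter, against 36.4% of those in wound WT. Paired regions lay at promoters in 81.4% and 80.3% of cases. Regions wider than 4 kb nearly always had a partner, with 1 exception among 987 in MEF WT and 3 among 949 in wound WT. The partner was itself over 4 kb for 67.9% and 70.7% of them.

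Of 22231 protein-coding genes, 13057 had a promoter region in at least 1 of the lists and 12178 had one in both. A promoter region was found in MEF WT only for 182 genes, 1.39% of the 13057, and in wound WT only for 697 genes, 5.34%. Restricted to regions with a −log10 p of 10 or more, the counts were 44 genes for MEF WT, 0.337%, and 52 genes for wound WT, 0.398%. The larger number of wound-only genes thus lay below that threshold. When both lists were first restricted to a −log10 p of 10 or more, the order turned, with 556 MEF-only and 289 wound-only genes, and the unpaired shares of regions became 10.6% in MEF WT and 3.50% in wound WT. The median −log10 p of one-type promoter regions was 6.31 in MEF WT and 5.13 in wound WT. Just inside the threshold stood Zfand6 in MEF WT (10.3) and Gm17379 in wound WT (10.0), and just outside it Gm13212 (9.90) and Spint1 (9.91).

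Many of the strongest one-type regions by −log10 p were matters of region edges. Among the 10 highest in each type, Oscar (an osteoclast receptor, 36.7), Aspdh (28.1), Col4a6 (a basement membrane collagen chain, 25.5) and Kdm6b (an H3K27 demethylase, 19.8) were MEF-only genes by the promoter definition. In wound WT the same held for 9930021D14Rik (30.1), Agrp (27.9), Gm17507 (24.8) and Tmem88 (20.1). For these genes the region overlapped a region of the other list, whose nearest edge lay 1018 to 1457 bp from the start, just past the 1 kb limit. Others among the highest had no partner at all, with Wt1 (27.4), Kazn (25.6), Plac8 (18.9) and Ldb2 (18.7) in MEF WT and Gm13157 (19.9), Tmem223 (19.5), Fam132a (19.0) and Mab21l1 (17.5) in wound WT. Leaving out genes whose region met any region of the other list left 30 MEF-only and 45 wound-only genes at a −log10 p of at least 10. This restriction was added after the values were seen, and the genes described next are among those 75.

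The promoters of Msx2 and Alx4, both wound-only, are printed because the descriptions below turn on them. They were picked after the values were seen. Each runs from 250 bases before to 50 bases after an annotated start, 5′ to 3′ on the gene's strand, in the NCBIM37 assembly (mm9), with every CpG in capitals. Msx2 (chr13:53568394-53568693, minus strand) holds 7 CpG at an observed over expected ratio of 0.565 and Alx4 (chr2:93482295-93482594, plus strand) holds 8 at 0.464. The start of Msx2 lies inside the called region, and the printed Alx4 window lies just upstream of its own.
Msx2: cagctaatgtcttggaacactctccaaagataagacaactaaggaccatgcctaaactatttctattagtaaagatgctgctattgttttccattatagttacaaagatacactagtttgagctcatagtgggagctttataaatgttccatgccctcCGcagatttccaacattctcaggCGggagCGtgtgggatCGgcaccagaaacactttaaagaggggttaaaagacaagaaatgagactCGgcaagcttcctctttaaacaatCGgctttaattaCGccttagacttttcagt
Alx4: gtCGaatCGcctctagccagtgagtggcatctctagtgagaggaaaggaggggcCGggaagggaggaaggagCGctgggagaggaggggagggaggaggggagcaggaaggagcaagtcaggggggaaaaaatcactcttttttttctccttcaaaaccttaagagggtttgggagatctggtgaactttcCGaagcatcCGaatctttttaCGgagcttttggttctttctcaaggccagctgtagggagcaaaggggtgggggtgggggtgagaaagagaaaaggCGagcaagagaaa

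Wt1, a zinc-finger factor of the mesothelium, kidney and gonad, had the highest −log10 p among the 30 MEF-only genes. Its region was 3685 bp wide in MEF WT (27.4) and 2929 bp in MEF SG (24.1), with none in wound WT, MEF KI or MMTV-CAF WT, and it was present at 5.46 in wound SG. The nearest wound WT region lay 108794 bp from its start. Kazn, which encodes a desmosome-associated protein, had a region in MEF WT (25.6), MEF SG (18.8) and MEF KI (9.16) and in none of the wound or MMTV-CAF lists. Ldb2, a cofactor of LIM-domain proteins, was present in MEF WT (18.7) and MEF SG (16.4) alone of the 6 lists. Chrna7, a nicotinic receptor subunit, was likewise present in MEF WT (17.9) and MEF SG (8.88) alone.

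Dcn encodes decorin, a small proteoglycan that binds collagen fibrils and is a usual marker of dermal fibroblasts. Its promoter region had a −log10 p of 16.3 in MEF WT, 5.01 in MEF SG and 7.003 in MMTV-CAF WT, and no region was called in wound WT, wound SG or MEF KI. Neither culture of dermal origin thus had a called region at this gene. Plac8, a small cysteine-rich protein, was similar, with 18.9 in MEF WT, 13.0 in MEF SG and 35.1 in MMTV-CAF WT. Also among the 30 were Lama4 (a laminin chain, 13.1), Sod3 (extracellular superoxide dismutase, 10.4), Clec11a (a secreted growth factor, 10.6) and the lysosomal protease Ctsc (11.8). In the SG lists these 4 genes differed. Sod3 had a region in MEF SG (9.91) and wound SG (5.08), Ctsc in MEF SG (7.75) alone, Lama4 in wound SG (4.42) alone, against its MEF-only place in the WT lists, and Clec11a in neither. Tril and Gm16499 share 1 region, as do Gm10634 and Gm2382, and Gm10065 and Zkscan4, so the genes of such a pair are not separate cases.

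**Figure D1:**
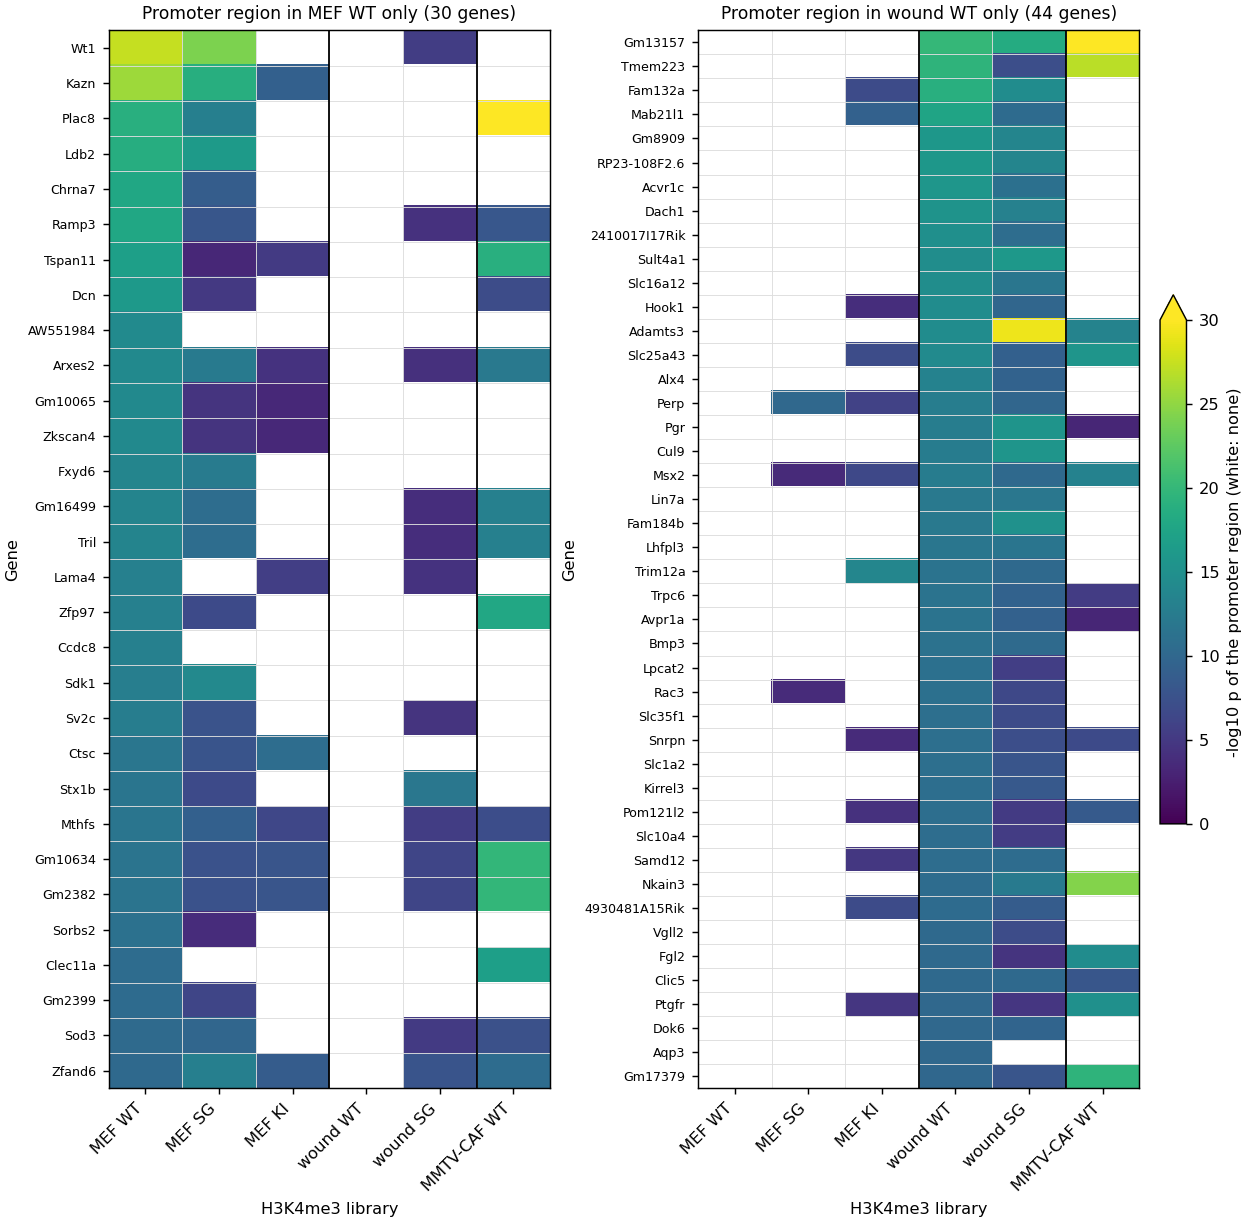
Rows are genes, 30 MEF-only and the wound-only genes but 1, whose promoter region had a −log10 p of at least 10 and met no region of the other WT list, and columns are the 6 H3K4me3 libraries. Colour gives the highest −log10 p among the promoter regions of the gene (values over 30 take the top colour). White means that none was called, and shades are to be compared within a column. Aqp3 is the 1 wound-only row not filled in wound SG, and 3 of these rows (Perp, Msx2 and Rac3) are filled in MEF SG.

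Among the 45 wound-only genes, Alx4, a homeobox factor of limb and skull mesenchyme, had a region of 2129 bp in wound WT (13.3) and of 6286 bp in wound SG (9.41), and none in the other 4 lists. Msx2, a BMP-responsive homeobox factor, had 2435 bp in wound WT (12.6) and 3234 bp in wound SG (10.2). It was also found in MMTV-CAF WT (13.3) and, as narrow regions, in MEF KI (613 bp, 6.52) and MEF SG (475 bp, 3.57). Dach1, a co-repressor of limb and eye development, was present in wound WT (15.4) and wound SG (13.2) alone, and the nearest MEF WT region lay 874564 bp from its start. Mab21l1, a developmental gene of eye and face, stood at 17.5 in wound WT and 10.5 in wound SG and at 9.29 in MEF KI.

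Acvr1c, a type I receptor of the TGF-beta family, was present in wound WT (15.8) and wound SG (11.0) alone. Bmp3, a BMP family member that opposes other BMPs, was present in the same pair of lists (11.3 and 10.4). Pgr, the progesterone receptor, had the widest of these regions at 4022 bp in wound WT (12.7) and 5792 bp in wound SG (15.6), with 3.19 in MMTV-CAF WT. Adamts3, a procollagen-processing protease, reached 14.6 in wound WT, 29.3 in wound SG and 13.4 in MMTV-CAF WT. Genes known from epithelia were in the group too, among them Perp (a desmosomal protein, 12.7) and Aqp3 (a water channel, 10.1). Perp was one of 3 wound-only genes of this group with a region in MEF SG (10.1), and Aqp3 was the 1 gene without a region in wound SG.

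Snrpn, a paternally expressed imprinted gene, had a region of 1221 bp in wound WT (10.9) and was found at 7.25 in wound SG, 6.74 in MMTV-CAF WT and 3.73 in MEF KI. Gm13157 had the highest −log10 p of the group in wound WT (19.9), with 18.4 in wound SG and 42.6 in MMTV-CAF WT. Gm8909 and RP23-108F2.6 share 1 region on chromosome 17 (15.8), and 2410017I17Rik (14.9) lies close by. Reads from gene families with near-identical copies may not be placed with certainty, so the values of these predicted genes are less certain.

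The SG lists were not used to choose the genes. They compare the cell types a second time, in cultures in which Prrx1 had been targeted. The paper describes Prrx1 deletion in the same fibroblast types, so SG and WT lists may share a culture. They need not be independent samples of a type. Of the 697 wound-only genes, 513 (73.6%, interval 70.2 to 76.7) had a promoter region in wound SG and 62 (8.90%, 7.001 to 11.2) in MEF SG. Of the 182 MEF-only genes, 91 (50.0%, 42.8 to 57.2) had one in MEF SG and 78 (42.9%, 35.9 to 50.1) in wound SG. Among genes with a region in both WT lists, 97.2% had one in MEF SG and 99.3% in wound SG. Among genes with none in either, the shares were 0.229% and 2.65%. The wound-only genes therefore recurred mostly in wound SG. The MEF-only genes of any strength were found in MEF SG and wound SG at shares whose intervals overlap.

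At a −log10 p of at least 10 and with no overlap, the split was wider. Of the 45 wound-only genes 44 (97.8%, 88.4 to 99.6) were found in wound SG and 3 (6.67%, 2.29 to 17.9) in MEF SG. Of the 30 MEF-only genes 26 (86.7%, 70.3 to 94.7) were found in MEF SG and 13 (43.3%, 27.4 to 60.8) in wound SG. MEF KI had the smallest list, at 13125 regions with a median −log10 p of 9.93. It held 11 of the 30 MEF-only (36.7%, 21.9 to 54.5) and 13 of the 45 wound-only genes (28.9%, 17.7 to 43.4), intervals that overlap. Wound SG was a larger list than MEF SG, with 19641 against 14668 regions.

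**Figure D2:**
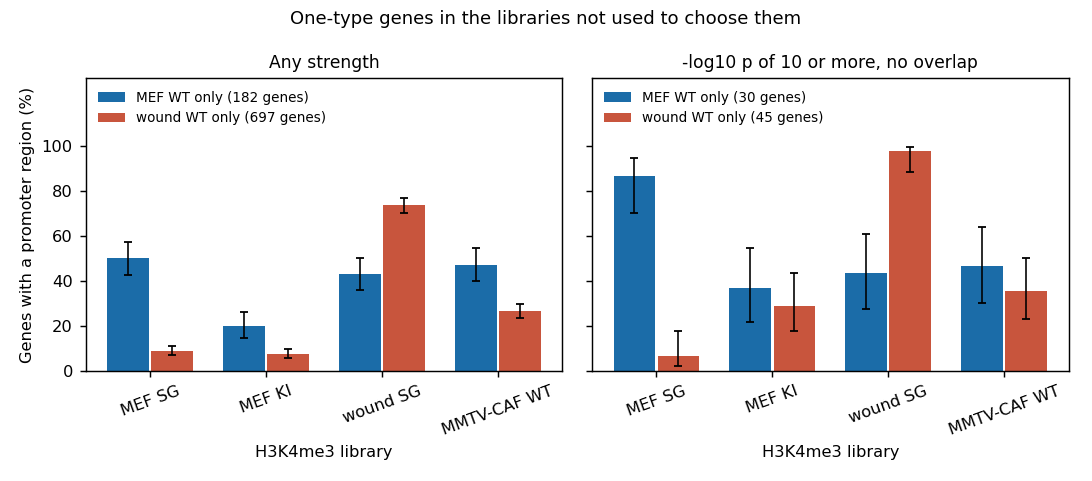
Bars give the share (%) of MEF-only (blue) and wound-only (red) genes with a promoter region in each of the 4 libraries not used to choose them, with Wilson 95% intervals, on the left for all one-type genes and on the right for those with a −log10 p of at least 10 and no overlapping region. In wound SG the wound-only bars stand at 73.6% and 97.8%, and in MEF SG at 8.90% and 6.67%.

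H3K27ac, a mark of active promoters and enhancers measured in the same cell types, split in the same manner at the stronger genes. An H3K27ac summit lay within 1 kb of a start for 15 of the 30 MEF-only genes in MEF WT (50.0%, 33.2 to 66.8) and for 0 of 30 in wound WT, which allows a share of up to 11.4%. For the 45 wound-only genes it was 18 in wound WT (40.0%, 27.02 to 54.5) and 1 in MEF WT (2.22%, 0.393 to 11.6). That single gene was Slc1a2, a glutamate transporter, which had a summit in both types. Wt1, Dcn, Ldb2 and Sod3 carried 2 summits each in MEF WT, and Alx4, Msx2, Mab21l1 and Pgr carried 1 each in wound WT. Kazn, Dach1, Acvr1c and Bmp3 had none in either type despite their H3K4me3.

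Over all one-type genes the H3K27ac shares were lower. For the 182 MEF-only genes they were 29.7% in MEF WT and 7.14% in wound WT. For the 697 wound-only genes they were 9.04% in wound WT and 4.73% in MEF WT. At the shared promoters they were 87.6% in MEF WT and 86.0% in wound WT. The H3K27ac lists held 44918 summits in MEF WT and 33465 in wound WT. Most weak wound-only promoters thus had H3K4me3 without a called H3K27ac summit. Summits of Prrx1 within 1 kb were rare, at 1 of the 182 MEF-only genes in MEF WT and 13 of the 697 wound-only genes in wound WT. Of the shared genes, 1.02% had a Prrx1 summit in MEF WT and 11.1% in wound WT, in lists of 3048 and 5698 summits.

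The promoters of the classes also differed in CpG content, read as the observed over the expected CpG count in 300 bases around 1 start per gene. The median ratio was 0.384 for MEF-only genes, 0.592 for wound-only genes, 0.769 for shared genes and 0.202 for genes with no region. A ratio of at least 0.6 was reached by 25.8% (20.01 to 32.6) of MEF-only and 49.1% (45.4 to 52.8) of wound-only genes. In the groups of 30 and 45 genes the shares were 30% (16.7 to 47.9) and 55.6% (41.2 to 69.1), intervals that overlap.

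**Figure D3:**
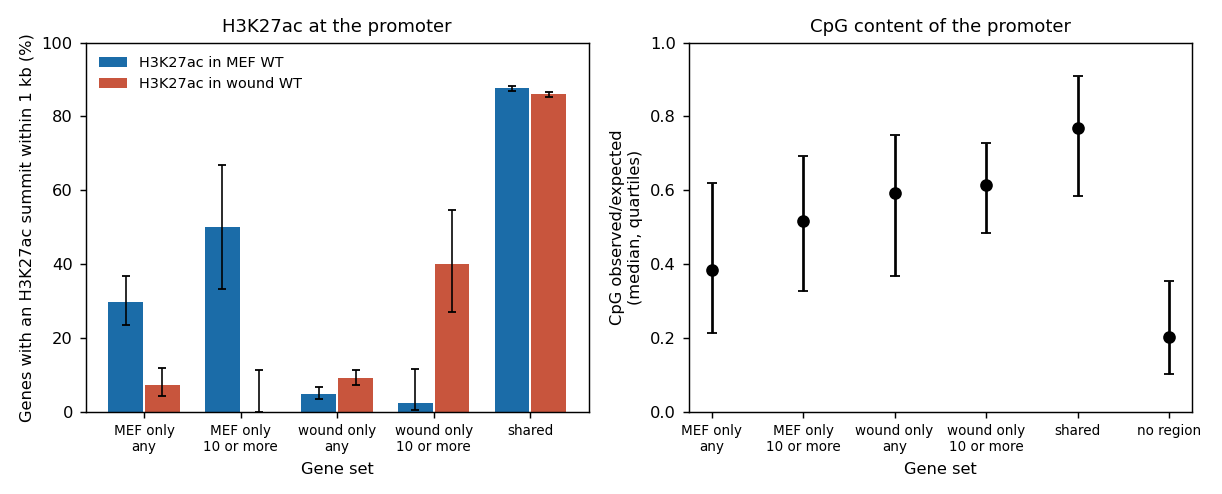
The left panel gives the share (%) of genes with an H3K27ac summit within 1 kb of a start in MEF WT (blue) and wound WT (red), with Wilson 95% intervals, and the right panel gives the median and quartiles of the observed over expected CpG ratio. The sets are one-type genes of any strength, those with a −log10 p of 10 or more and no overlapping region, shared genes and genes with no region. The MEF-only set of 30 stands at 50.0% in MEF WT and 0 in wound WT.

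Among the gene lists, the craniofacial and neural crest factors leaned to the wound side. Of 30 genes, 15 were marked in both types, 7 in wound WT only and 1, Pax9 (4.11), in MEF WT only. Besides Alx4 and Msx2, the wound-only genes included Foxd3 (5.28), Dlx6 (5.16), Dlx3 (4.30) and Pax3 (4.15), homeobox, paired-box or forkhead factors that were below 10. Alx1, a relative of Alx4, went the other way in width, with 2600 bp in MEF WT (11.5) and 636 bp in wound WT (7.01). The share marked in wound WT only, 7 of 23, stands beside 5.34% over all marked genes. Factors of heart, gut and visceral mesoderm had 4 wound-only members of 17 marked, among them Nkx6-1 (6.06), Gata4 (5.48) and Nkx2-3 (4.09), and Wt1 as the MEF-only member.

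One-type genes were few in some lists and many in others. Among germline and pluripotency genes 2 were MEF-only and 3 wound-only of 9 marked, among skeletal muscle factors 3 were wound-only of 10, in the HoxD cluster 2 of 7 and among complement and acute-phase genes 2 of 5, all below a −log10 p of 10. The shares over all marked genes were 1.39% MEF-only and 5.34% wound-only. All 26 ribosomal protein genes were marked in both types and none differed 2-fold in width. Of 41 collagen and matrix genes 31 were marked in both, with Dcn and the elastin gene Eln (5.60) in MEF WT only and Col14a1 (8.47) and Col18a1 (5.55) in wound WT only. Among 23 contractile genes of myofibroblasts, 18 were shared, including the smooth muscle actin gene Acta2 and Tagln. Of 21 marked in either list, Actg2 (4.47) and Lmod1 (7.35) were in MEF WT only and Myh11 (3.08) in wound WT only. Of 33 cytokine and chemokine genes 11 were shared, and the monocyte attractants Ccl2 (5.92) and Ccl7 (8.79) were marked in MEF WT only and Cxcl5 (5.99) in wound WT only. Bmp2 (6.38) and Bmp7 (4.59) joined Bmp3 as wound-only ligands.

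Among shared promoters the widths were close. The median log2 ratio of wound WT over MEF WT width was −0.06 (quartiles −0.23 and 0.11) over 12178 genes, and 71.4% of genes lay within 1.25-fold. A region at least 2-fold wider in wound WT was found for 229 genes (1.88%), and at least 2-fold wider in MEF WT for 278 (2.28%). With both regions at a −log10 p of at least 10, there were 69 genes (0.636%) and 123 genes (1.13%) among 10848. The order of the unrestricted counts was not stable, with 88 and 77 genes at 3-fold and 221 and 207 when bases covered within 10 kb of a start were compared in place of widths. A width over 4 kb was reached in both types by 768 genes, in MEF WT alone by 358 and in wound WT alone by 323.

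**Figure D4:**
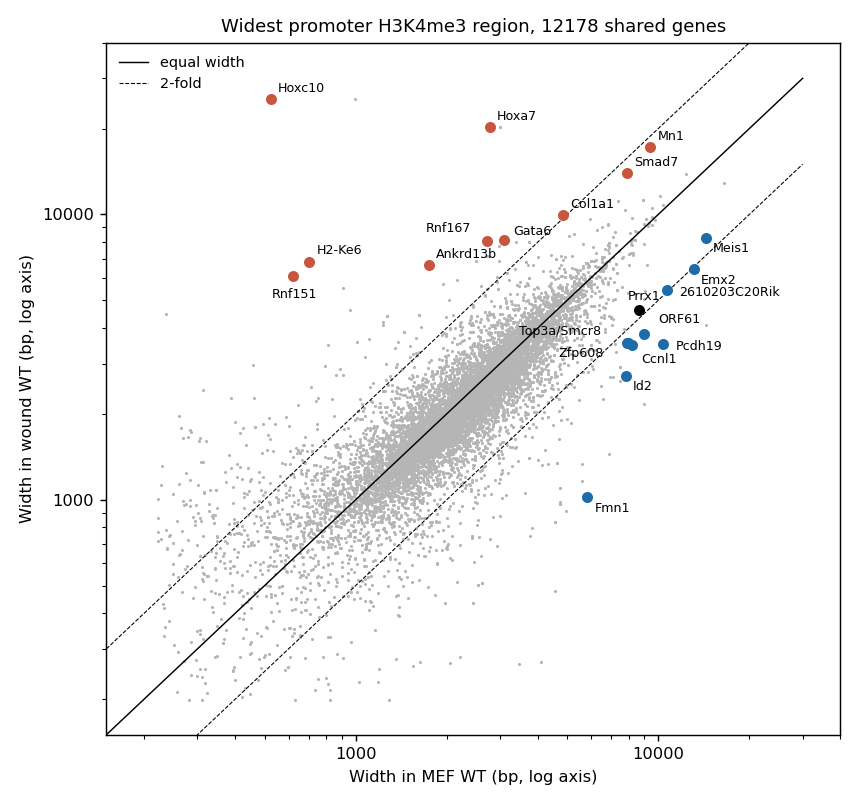
Each grey point is 1 of 12178 genes with a promoter region in both lists, placed by the width (bp, log axes) of its widest promoter region in MEF WT (x axis) and wound WT (y axis). Red and blue mark the genes with the greatest width difference in either direction at a −log10 p of at least 10, black marks Prrx1, and dashed lines mark 2-fold. Hoxc10 (524 bp against 25297 bp) stands farthest from the line of equal width among the marked genes.

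Posterior Hox genes held the greatest width differences toward the wound type. The Hox clusters encode homeodomain factors whose order along the chromosome follows their order along the body axis. Hoxc9 and Hoxc10 lay under 1 wound WT region of 25297 bp, while their widest MEF WT regions measured 996 bp and 524 bp. The 3 MEF WT regions inside this domain covered 4206 bp. Hoxa7, Hoxa9 and Hoxa10 shared 1 wound WT region of 20288 bp, against widest MEF WT regions of 2775 bp, 3001 bp and 3001 bp, and 5 MEF WT regions inside it covered 12598 bp. The HoxA domain was thus marked in both types but broken into pieces in MEF WT, while most of the domain over Hoxc9 and Hoxc10 was without a called region there.

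The same domains were broad in wound SG, at 28250 bp over Hoxc10 and 32735 bp over Hoxa7, while the widest MEF SG regions at these genes measured 629 bp and 2609 bp. Inside the HoxA domain 5 MEF SG regions covered 12760 of 20288 bp, and inside the HoxC domain 3 covered 4627 of 25297 bp. MMTV-CAF WT had 28257 bp over Hoxc10. All 7 HoxC genes marked in both WT lists were wider in wound WT, with a median log2 ratio of 0.50, against −0.06 over all shared genes, although Hoxc8 differed by 3 bp (3903 bp and 3906 bp). The HoxA list had a median of 0.10 with 7 genes wider in wound WT and 3 in MEF WT. Among the latter was Hoxa5, with 5610 bp in MEF WT and 1161 bp in wound WT (−log10 p 5.46). The HoxB list had a median of −0.12 with 3 genes wider in wound WT and 4 in MEF WT. Several posterior genes of the clusters were marked weakly and in 1 type, with Hoxd11 (5.40) and Hoxd13 (4.57) in wound WT only and Hoxa11 (4.56) in MEF WT only. In the HoxC cluster Hoxc12 (9.15) was marked in wound WT only and Hoxc11 (4.56) in MEF WT only.

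Some other genes known from development were broader in wound WT. Of 12 shared heart, gut and visceral mesoderm factors, 2 (Gata6 and Hand2) were at least 2-fold wider in wound WT and 3 in MEF WT. Of 19 shared fetal growth and imprinted genes, 1 (Lin28b) was at least 2-fold wider in wound WT and 2 in MEF WT. The shares over all shared genes were 1.88% and 2.28%. Gata6, a zinc-finger factor of heart and endoderm, measured 3097 bp in MEF WT and 8115 bp in wound WT, and 2551 bp in MEF SG and 14467 bp in wound SG. Hand2, a factor of heart and limb mesenchyme, measured 457 bp in MEF WT (6.54) and 2975 bp in wound WT (10.4). Kdr, the receptor of vascular endothelial growth factor and 1 of the endothelial markers above, measured 907 bp and 5528 bp, with 491 bp in MEF SG and 6173 bp in wound SG. Mn1, a transcriptional co-activator of craniofacial development, measured 9396 bp and 17197 bp. Lin28b, a regulator of let-7 processing, measured 230 bp in MEF WT (3.99) and 1311 bp in wound WT (15.8).

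The share of all shared genes past 2-fold was 1.88% toward wound WT and 2.28% toward MEF WT. Of 31 collagen and matrix genes marked in both types, 2 (Col1a1 and Loxl2) were at least 2-fold wider in wound WT and 3 (Postn, Spp1 and Ogn) in MEF WT. Of 27 genes of the BMP and TGF-beta list, 0 were at least 2-fold wider in wound WT and 3 (Inhba, Chrdl1 and Id2) in MEF WT. Col1a1, the alpha-1 chain of type I collagen, had 4841 bp in MEF WT and 9927 bp in wound WT, and 3531 bp against 7486 bp in the SG lists. Its partner Col1a2 did not follow, with 3648 bp and 3446 bp. Smad7, an inhibitor of TGF-beta signalling, had 7891 bp in MEF WT and 13998 bp in wound WT, but 2 MEF WT regions covered 11331 bp of the latter. In the SG lists it had 7400 bp and 9046 bp, a log2 ratio of 0.29 beside a median of 0.23 over all genes shared by these lists. Loxl2, a collagen cross-linking enzyme, had 1297 bp and 2709 bp.

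The genes with the greatest width differences toward MEF WT had varied roles. Emx2, a homeobox factor of the urogenital system and forebrain, had 13099 bp in MEF WT and 6415 bp in wound WT, with 12642 bp in MEF SG and 5655 bp in wound SG. Pcdh19, an X-linked protocadherin, had 10372 bp and 3505 bp, with 10034 bp and 3434 bp in the SG lists. Id2, an inhibitor of basic helix-loop-helix factors, had 7825 bp and 2717 bp, with 7238 bp and 2862 bp. In these 3 genes MEF WT and MEF SG stood above both wound lists, while MEF KI, the list with the fewest regions, stood below all 4 of them at 3977 bp, 2675 bp and 1834 bp. In the third MEF culture these genes thus did not keep the MEF-wide order. Inhba, the activin A subunit, had 9000 bp and 2164 bp (−log10 p 9.13), with 8752 bp and 6973 bp in the SG lists. Rspo3, a Wnt pathway enhancer, had 3616 bp and 1057 bp. Fmn1, a formin linked to limb development, had 5816 bp and 1019 bp in the WT lists but 5373 bp and 5298 bp in the SG lists.

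Some MEF-wide genes differed in the joining of regions more than in their extent. Over Meis1, a Hox cofactor, the single MEF WT region measured 14328 bp and the widest wound WT region 8289 bp, yet 3 wound WT regions covered 13004 bp of the same interval. ORF61 (8420 of 8986 bp), Top3a and Smcr8 (7404 of 7914 bp) and Zfp608 (7048 of 7889 bp) were alike. Over Emx2 the wound WT regions covered 7919 of 13099 bp, over Id2 5799 of 7825 bp, over Inhba 6506 of 9000 bp and over Pcdh19 6000 of 10372 bp. On the wound side, 1 unbroken MEF WT region covered 7669 of the 8063 bp of the wound WT region at Rnf167 and 2 covered 5402 of 6089 bp at Rnf151, although the widest MEF WT regions within 1 kb of a start of these genes measured 2726 bp and 621 bp. These differences lay in which region counted as the promoter region.

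Single developmental factors were broader in MEF WT. Among T-box and limb factors 6 were wider in wound WT and 5 in MEF WT, and among heart, gut and visceral mesoderm factors 7 and 5, with median log2 ratios of 0.04 and 0.11. Among skeletal muscle factors, the list that holds Eya1, 2 were wider in wound WT and 5 in MEF WT, with a median of −0.27. Pitx1, a hindlimb identity factor, had 4003 bp in MEF WT and 1378 bp in wound WT. Eya1, a transcriptional co-activator of kidney, ear and muscle development, had 4312 bp and 1339 bp. Osr1, a factor of intermediate and limb mesoderm, had 2846 bp and 870 bp. Nkx2-5, a heart factor, had 2086 bp and 614 bp. The wound WT regions of Eya1 (7.76), Osr1 (4.60) and Nkx2-5 (4.53) were below a −log10 p of 10. The SG lists did not all keep this order. Nkx2-5 had 2072 bp in MEF SG and no promoter region in wound SG, and Osr1 had 2335 bp and 1763 bp, but Pitx1 had 3958 bp and 6046 bp and Eya1 4076 bp and 4404 bp. At Pitx1, moreover, 2 wound WT regions covered 3445 of the 4003 bp.

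Of the 11 fibroblast markers with a region in both WT lists, 8 were wider in MEF WT and 3 in wound WT, with a median log2 ratio of −0.58. Vim, an intermediate filament gene, had 9072 bp in MEF WT and 5398 bp in wound WT. Thy1, a surface glycoprotein, had 2580 bp (−log10 p 20.8) and 1264 bp (8.20). Postn, the matrix protein periostin, had 1929 bp (4.21) and 666 bp (5.35). The 3 that were wider in wound WT were Col1a1, the fibronectin gene Fn1 (4901 bp and 6306 bp) and the PDGF receptor gene Pdgfrb (3364 bp and 4191 bp). Of the 24 interferon and antigen presentation genes marked in both types, 18 were wider in MEF WT, with a median log2 ratio of −0.22. Over all shared genes 60.8% were wider in MEF WT, at a median of −0.06. Oas2 (2082 bp and 745 bp) was the only one of them past 2-fold in that direction.

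**Figure D5:**
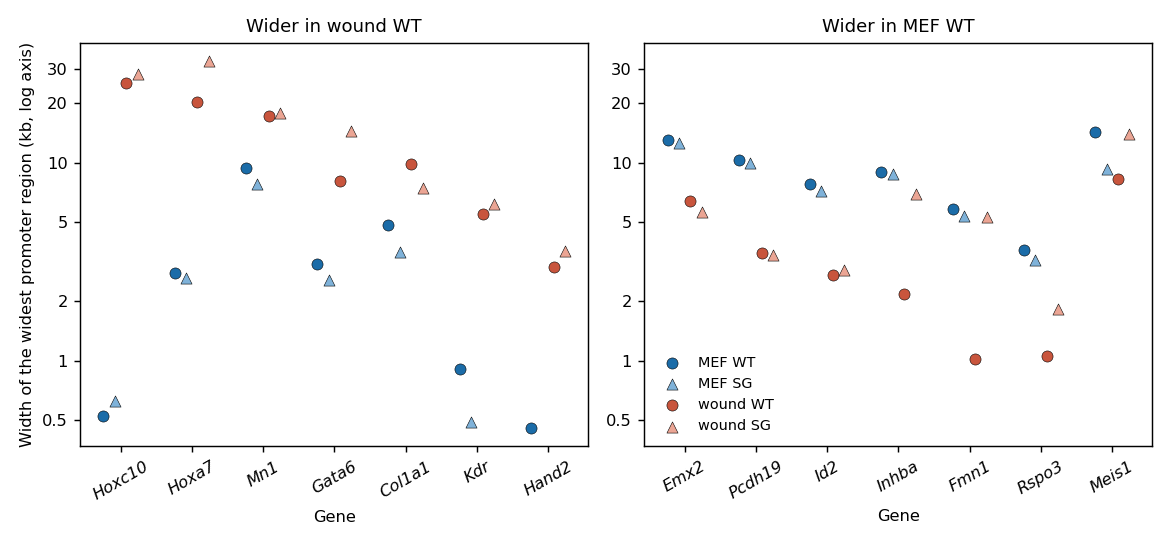
Points give the width of the widest promoter region (kb, log axis) for 7 genes wider in wound WT (left) and 7 wider in MEF WT (right) in MEF WT, MEF SG, wound WT and wound SG, with no point where no region was called. In all 7 genes on the left both wound lists stand above the MEF lists that have a region, while on the right Meis1 turns its order in the SG lists and Fmn1 is nearly equal there.

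Width differences toward the wound type recurred in the SG lists in a larger share of genes than those toward the MEF type. The SG lists were shifted as a whole, with a median log2 ratio of 0.23 over 11800 shared genes, so counts are given against that median. Of the 152 genes at least 2-fold wider in wound WT that could be compared, 139 (91.4%) lay above it. Of 230 genes at least 2-fold wider in MEF WT, 158 (68.7%) lay below it. With both WT regions at a −log10 p of at least 10 these were 62 of 66 (93.9%) and 79 of 121 (65.3%). The median departure was 0.98 for the wound-wide and −0.13 for the MEF-wide genes. Centring on the median was chosen after the data were seen. Without it, 142 of the 152 (93.4%) were wider in wound SG, but 119 of the 230 (51.7%) were wider in MEF SG, and 55 of the 121 (45.5%). With MEF KI in place of MEF SG, the centred shares were 90.8% for the wound-wide genes and 58.4% for the MEF-wide genes, or 94.7% and 52.2% where both WT regions were at 10 or more.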

How the data were processed

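ChIP-seq peak lists of 17 of the 24 samples were analysed, 6 of them H3K4me3. Per the labels and the study's methods, the reads had been trimmed (Trimmomatic) and mapped by Bowtie to the mm9 genome, and the authors had called broad H3K4me3 regions against input, 1 list per library, using MACS2. The deposited region lists have no header. From their layout and values, their last columns were read as a broad-peak file's fold enrichment (ratio to input) and −log10 of the p-value and q-value, averaged over each region by the authors' caller, and every −log10 p here rests on that reading. The deposited H3K27ac and Prrx1 lists hold summits of 1 bp with a −log10 p. The −log10 p depends on depth. It was used to rank and filter regions within a list, with the same limit in every list, and is printed for several lists side by side without a test between them.

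Genes and starts came from GENCODE vM1 on NCBIM37, the same build, and 131 entries with a repeated symbol were joined. A gene's width is that of its widest promoter region, and wound WT is divided by MEF WT. The −log10 p printed for a gene is the highest among its promoter regions, so it can come from another region than the width. Width comparisons at a −log10 p of 10 or more used the value of the widest region itself. Named genes are the 10 per direction with the highest −log10 p or greatest width difference, list members past those thresholds, Prrx1, Col1a1, genes beside the threshold and, added later, one-type genes with no overlapping region. Members and gene lists were chosen with earlier results of these data known. Groups came from sample titles. The overlap and width steps were tested on simulated data. Alternatives were stricter −log10 p, equal list sizes, other windows, starts and overlaps, joined regions and covered bases. Some genes and sequences are not reported here. Reads and inputs were not used here. Scripts ran in Python with numpy, pandas, scipy and pysam.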

Additional observations from a re-analysis of the deposited data

Results flagged for a closer look

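The WT comparison and the SG comparison (wound SG over MEF SG) gave opposite signs of the width ratio at 15 of the 53 named genes with a region in all 4 lists, and this difference was not tested. Of the 15, 14 were wider in MEF WT and 1, Ankrd13b, in wound WT. Ankrd13b had a log2 ratio of 1.93 in WT and −1.91 in SG. The SG log2 ratio was 3.61 at Hoxa5, against −2.27 in WT, where a wound SG region of 32735 bp ran over the gene. It was 1.37 at 2610203C20Rik, 1.06 at both Zfp608 and the Wnt enhancer Rspo2, 0.96 at the chemokine gene Cxcl1 and 0.92 at the neuronal RNA-binding gene Elavl4. It was 0.61 at the hindlimb factor Pitx1, 0.60 at the Hox cofactor Meis1, 0.55 at Zic4 and 0.37 at Zic1. The neighbours Top3a and Smcr8, which share their regions, stood at 0.34, and ORF61 and Eya1 at 0.11. The median over all shared genes in the SG lists was 0.23, so ORF61 and Eya1 lay below that median, as in WT.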

How the results depend on the processing

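Of 58 recomputed values, 29 stayed within their interval or, for counts, within 1.5 times, and 29 moved. No single value changed sign, but several orders between the cell types turned. The unpaired shares of MEF WT and wound WT were 10.6% and 3.50% with both lists at a −log10 p of 10 or more, 13.1% and 11.9% in lists of equal size, and 10.5% and 13.2% with regions within 1 kb joined. Wound WT gave 15.4% where an overlap had to reach 50% of the shorter region. With both lists filtered at a −log10 p of 10, the MEF-only genes numbered 556 and the wound-only genes 289, the opposite order to the unfiltered lists, and 71 genes were 2-fold wider in wound WT and 131 in MEF WT. In the unfiltered lists wound-only genes outnumbered MEF-only genes at each strength, with 44 MEF-only and 52 wound-only genes at 10 or more, and 30 and 45 with no overlap as well, an alternative added after seeing the data. Only regions covering a start gave 292 MEF-only genes and 133 genes 2-fold wider in wound WT. A 3-fold limit left 88 genes wider in wound WT and 77 in MEF WT, and covered bases gave 221 and 207, both against the order at 2-fold, while joined regions gave 269 in each direction. Equal list sizes also turned the order of the unpaired shares.

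Among genes at 10 or more and absent from the other list, 77.3% of the MEF-only genes were found in MEF SG, 52.3% in wound SG and 94.2% of the wound-only genes in wound SG, and H3K27ac summits lay at 40.9% and 36.5% in the own type. With no overlap as well, these were 86.7% in MEF SG for MEF-only genes, 6.67% in MEF SG and 97.8% in wound SG for wound-only genes, and 50.0% and 40.0% for H3K27ac. The median log2 width ratio stayed between −0.06 and −0.05. No paired analysis was possible because each group has 1 library and the results come from no test. Depth is unknown, so a weaker library can lose regions that the other keeps.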

Other observations

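Further gene groups are given by their counts. Of 30 germline and pluripotency genes, 21 had no promoter region in either WT list, among them Pou5f1, Nanog and Dppa3. Dazl (−log10 p 5.05) and Tdrd1 (5.06), genes of germ cells, had one in MEF WT only, and Nodal (5.39), Sall3 (4.82) and Utf1 (3.47) in wound WT only. Of 20 skeletal muscle genes, 10 had none, including the myogenic factors Myod1, Myf5 and Myog. Among fetal growth and imprinted genes marked in both types, 15 were wider in MEF WT and 4 in wound WT, with a median log2 ratio of −0.17 against −0.06 over all shared genes. Dlk1, a paternally expressed growth regulator, measured 2092 bp in MEF WT and 975 bp in wound WT (8.32). Plagl1 measured 2253 bp and 948 bp (9.31). The exceptions included Lin28b. Of 35 Wnt ligands and modulators, 4 were at least 2-fold wider in wound WT (Wnt1, Wnt2, Wnt7b and Sfrp4) and 3 in MEF WT (Rspo3, Rspo2 and Wnt4), of 21 marked in both types, against 1.88% and 2.28% of all shared genes. Of these 7, Rspo2 and Rspo3 had both regions at a −log10 p of at least 10.

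Both WT lists held a few regions on the Y chromosome, 7 in MEF WT and 4 in wound WT. Genes past 2-fold in width, with both regions at a −log10 p of at least 10, were counted by chromosome. On X, 11 were wider in MEF WT and 0 in wound WT. Chromosome 12 had 11 and 0, and chromosome 13 had 6 and 0. Other chromosomes leaned toward wound WT, among them 4 (1 and 6), 8 (2 and 5) and 11 (6 and 11). All together had 123 and 69.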
